A study of Mus musculus with 12 samples.

Results

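The genes described here are 10 transcriptional targets of the ERK pathway downstream of FGF and EGF receptors: Spry1, Spry2, Spry4, Spred1, Spred2, Dusp4, Dusp6, Etv4, Etv5 and Egr1. They were chosen by symbol, and all 10 were found among the 22609 genes of the count tables and among the 34993 identifiers of the FPKM table.

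The cells were ANS cells, neural progenitors grown as an adherent monolayer and derived from mouse brain at E14.5. RNAseq gave 12 libraries, of which 3 came from proliferating cells (T0) and 3, 4 and 2 from cells at the stages T1, T2 and T3. The T0 cells were kept in growth medium with FGF2 at 20 ng/ml and EGF at 20 ng/ml. The T1 cells had been for 2 days in medium D1, where FGF was lowered to 10 ng/ml and EGF to 2 ng/ml. The T2 cells were taken 2 days, and the T3 cells 10 days, after a further change to medium B, which held FGF-2 at 10 ng/ml and BDNF at 20 ng/ml and for which EGF is not listed. The times are those of the labels, and the study's text can be read as counting the T3 days from T2 on. The media also differed in their supplements and the cells were re-plated on laminin, so the growth factors, the other medium components, the re-plating and the days in culture cannot be told apart. The labels count the libraries as separate samples of a time point, and the study's methods call them biological triplicates. The labels give no genetic change or inhibitor for any of them.

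FGF and EGF bind receptor tyrosine kinases at the cell surface, which activate RAS, RAF, MEK and at last the kinase ERK. Active ERK phosphorylates transcription factors, and within hours the cell transcribes genes whose products damp the same cascade: Sprouty and Spred proteins act between receptor and RAF, and dual-specificity phosphatases remove the phosphates from ERK itself. The same signal turns on the ETS factors Etv4 and Etv5 and the immediate-early factor Egr1. In neural progenitors FGF and EGF sustain self-renewal, and these genes are widely used as transcriptional readouts of that signal.

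A further step of this circuit is the repressor Capicua (Cic), which sits on short AT-rich octamers and is released from DNA when ERK is active. The promoter entries of the members in the RefSeq table (GRCm38.p6) were therefore searched for TCAATGAA, TCAATGGA, TGAATGAA and TGAATGGA on both strands, over 250 bases before to 50 bases after the start site. Of the 10 members, 6 have an entry (Spry1, Spry2, Spred1, Spred2, Dusp6, Etv5), and 2 of these 6, Dusp6 and Spry2, hold an octamer, against 3.84% of all 32851 promoters in the table. The octamers are shown with 8 bases on either side, 5′ to 3′ on the strand of the gene, with the octamer in capitals. In all 3 cases the searched word lies on the opposite strand, so the capitals show its reverse complement. The table entries of Dusp6 and Spry2 each have 1 exact match on NCBIM37 (mm9), the build of the count tables. The coordinates given are those of the printed 24-base stretches on that build, and the strand is that of the gene. Dusp6 holds TCAATGGA at bases -24 to -17 from the start site (chr10:98725833-98725856, plus strand) and again at bases 2 to 9 (chr10:98725858-98725881, plus strand), and Spry2 holds TCAATGAA at bases -54 to -47 (chr14:106296075-106296098, minus strand).
Dusp6 upstream of the start: agaatgtaTCCATTGAgacgctgg
Dusp6 at the start: tgtttgtaTCCATTGAggagctgc
Spry2 upstream of the start: gcctcttgTTCATTGAgaaaaaaa
These matches are letters in a window and no measurement of binding. Of the other motifs searched in the same windows on both strands, CCGGAA (an ETS core) was in 14.9% of all promoters and in that of Spry2, and AGGAAG (PEA3) in 35.4% of all and in those of Dusp6, Etv5 and Spred2. TGACGTCA (CRE, 1.79% of all promoters), TGANTCA (AP-1, 7.81%) and the CArG box (1.63%) were in none of the 6.

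The libraries held between 8910724 and 16631614 reads counted on genes. Levels are given as CPM, the counts scaled to library size with TMM factors, a scale on which a gene can be compared between libraries but not with another gene. The library T0 replicate 3 stood apart, which touches every comparison with T0. Per gene, its counts differed from those of T0 replicates 1 and 2 by a chi-square of 96.4 and 99.9, against 3.17 between replicates 1 and 2, and Gfap was at 0.494 CPM there against 147 and 149.6 CPM. The comparisons of the members and of the lists with T0 are therefore also given without it. Those fits rest on T0 replicates 1 and 2, the most alike pair within any time point by this chi-square (the next was 5.13, in T1). Their small p-values depend on that narrow spread, which may understate the spread of T0 cultures. The 6 proliferation markers in the tables (of 7 listed) summed to 1375 to 2166 CPM at T0, highest in replicate 3, with 75.1 to 197 CPM for T1, 110.2 to 244 CPM for T2 and 420.3 to 753 CPM for T3. They moved with several of the genes below, and their part in the results was not tested. The 8 neural progenitor markers summed to 6800 to 8166 CPM for T0, 6668 to 8147 CPM for T1, 5910 to 6868 CPM for T2 and 6152 to 6396 CPM for T3. The 8 neuronal markers in the tables (of 9 listed) summed to 893 to 966 CPM in T0, 2060 to 2610 CPM in T1, 2032 to 2590 CPM in T2 and 1697 to 2726 CPM in T3, with Stmn2 at 0 in every T0 and T2 library. The 6 markers of oligodendrocyte precursors summed to 3276 to 3620 CPM in T0, 4279 to 4976 CPM in T1, 4377 to 5277 CPM in T2 and 6224 to 6343 CPM in T3. The T0 sums hide a split in T0 replicate 3, taken against the mean of T0 replicates 1 and 2. There Pdgfra was at 0.128 times, Cspg4 at 0, Sox10 at 0.234 and Gpr17 at 0.0089 times that mean. Olig1 was at 1.01 and Olig2 at 1.37 times it. The sum of the 7 astrocyte markers lay between 1712 and 2882 CPM throughout, with Gjb6 at 0 in every T0 and T1 library. In T0 replicate 3 Gfap was at 0.00333, Aqp4 at 0.0857 and Slc1a2 at 0.0990 times the mean of replicates 1 and 2. S100b was at 0.257, Aldh1l1 at 0.406 and Aldoc at 0.844 times it. Markers of microglia (at most 0.478 CPM in sum), endothelium (at most 3.05 CPM) and mesenchyme (at most 1.35 CPM) were near 0. In such bulk samples, fewer cells that express a gene and less RNA of it per cell cannot be told apart.

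**Figure D1:**
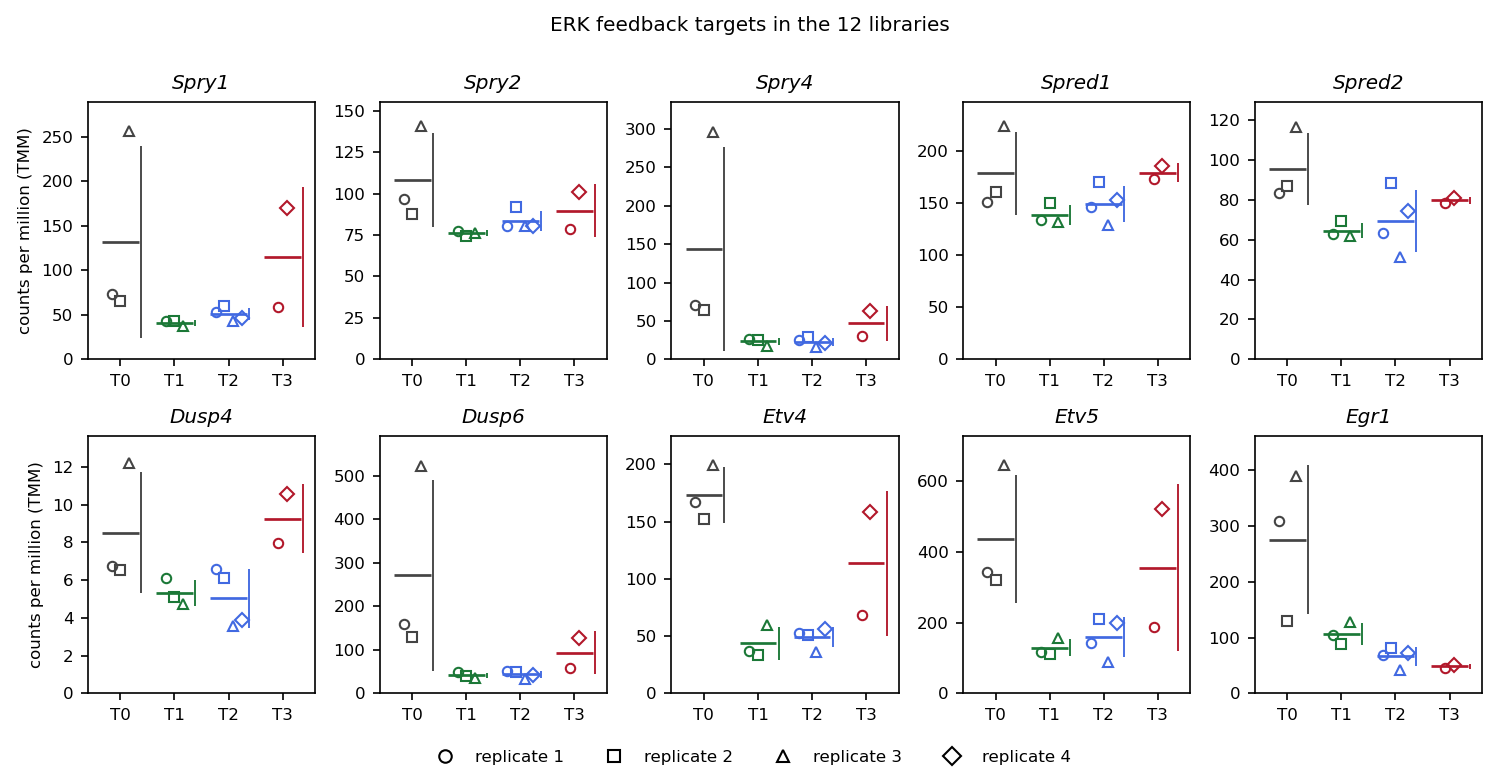
Level of the 10 genes in each of the 12 libraries, in CPM from 0 upward, with a panel per gene and the time points on the horizontal axis. Points are libraries (the symbol gives the replicate number), horizontal bars the mean and vertical lines ± 1 SD. In all 10 panels the 3 T1 libraries lie below the 3 T0 libraries, and T0 replicate 3 is the highest T0 library.

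From T0 to T1, when both mitogens were lowered, 7 of the 10 genes fell and 0 rose. The genes that fell were Spry1, Spry4, Spred2, Dusp6, Etv4, Etv5 and Egr1, by edgeR's quasi-likelihood test with Benjamini-Hochberg adjustment over 12364 genes at a threshold of 0.05. Over all genes tested, 16.8% fell and 15.1% rose. All 10 genes were lower in each T1 library than in each T0 library, which held for 28% of all genes tested. The median log2 fold change was -1.53 over the 10 genes and -0.0082 over all genes. The number that fell was 8 without T0 replicate 3, with Spry2 added, and 6 without T0 replicate 1. In the former, 24.9% of all 12557 genes tested fell and 25.2% rose. The number of members was 3 without T1 replicate 1, 2 without T1 replicate 2 and 2 without T1 replicate 3, where over all genes the lower calls also dropped, from 2078 to between 940 and 1215. Etv4 and Etv5 passed the test in all 16 alternative analyses of this comparison.

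At T2, in medium B, 6 of the 10 genes were lower than at T0 by the same test and 0 were higher. They were Spry1, Spry4, Dusp6, Etv4, Etv5 and Egr1, while 21.8% of 12607 genes tested were lower and 21.4% higher. The libraries did not overlap for these 6 genes, against 27.2% of all genes that were lower at T2 without overlap. The median log2 fold change was -1.40 over the 10 genes and 0.0023 over all genes. The same 6 genes passed without T0 replicate 3, where 25.3% of all genes were lower and 26.7% higher. Dusp6, Etv4 and Egr1 passed in all 17 alternatives of this comparison. The comparisons of T1, T2 and T3 with T0 share the T0 libraries, so they are set side by side and are not independent of each other.

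**Figure D2:**
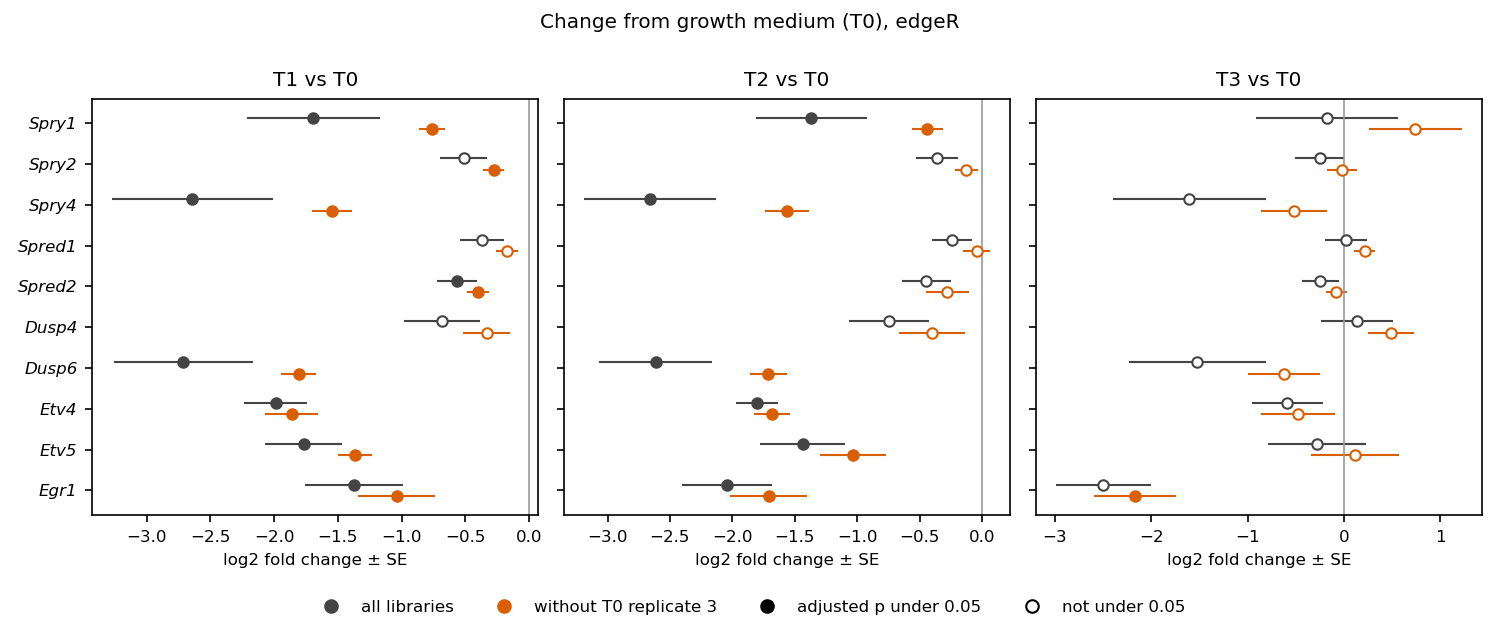
Log2 fold change ± SE of the 10 genes at T1, T2 and T3 against T0 from edgeR, with all libraries (grey) and without T0 replicate 3 (orange). Filled points have an adjusted p under 0.05. At T1 and T2 every point lies left of 0. At T3 the points of Spred1 (0.02) and Dusp4 (0.14) lie right of 0 with all libraries, and those of Spry1 (0.74) and Etv5 (0.11) join them without T0 replicate 3.

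The Sprouty proteins are inhibitors that are recruited to the membrane and block the path from receptor to RAS and RAF. Spry4 (chromosome 18) showed the largest drop of the 3. T0 replicates 1, 2 and 3 held 71.0, 63.7 and 297 CPM, and the T1 libraries 26.5, 25.6 and 17.6 CPM. The T2 libraries held 25.1, 28.4, 16.1 and 20.7 CPM, T3 replicate 1 held 30.3 CPM and T3 replicate 4 held 62.9 CPM. Every later library lay below every T0 library, closely so for T3 replicate 4. In edgeR the log2 fold change was -2.64 ± 0.63 (SE; 6.23-fold lower, adjusted p = 0.0203) at T1 and -2.66 ± 0.53 (adjusted p = 0.00469) at T2. T0 replicate 3 made up much of that size: without it the values were -1.55 (adjusted p = 8.13e-05) and -1.56 (adjusted p = 6.63e-05). Without T1 replicate 1, 2 or 3 the T1 call was lost, with adjusted p of 0.0717, 0.0802 and 0.0859.

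Spry1 (chr3:37538869-37543520, plus strand) had T0 and T3 groups that were uneven. Its T0 libraries held 73.3, 65.4 and 257 CPM, those of T1 43.4, 42.8 and 36.8 CPM, and those of T2 52.8, 59.3, 43.4 and 46.8 CPM. The T3 libraries stood at 59.2 and 170.5 CPM, so replicate 1 fell among the T2 values and replicate 4 between the T0 libraries. The fall was by 1.69 ± 0.52 on the log2 scale at T1 (adjusted p = 0.0468) and by 1.37 ± 0.44 at T2 (adjusted p = 0.0355, edgeR). Both calls were close to the threshold: leaving out T1 replicate 1, 2 or 3 gave adjusted p of 0.129, 0.137 and 0.147, and leaving out T2 replicate 1, 2, 3 or 4 gave 0.0735, 0.0696, 0.0906 and 0.0860. The changes without T0 replicate 3 were smaller, at -0.76 and -0.44, and passed (adjusted p = 0.000394 and 0.0145).

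Spry2 (chr14:106291166-106296036, minus strand) moved least of the Sprouty genes. Its level was 96.6, 87.8 and 141 CPM in the T0 libraries, 77.6, 74.2 and 76.6 CPM in those of T1, 80.6, 92.3, 80.4 and 80.4 CPM in those of T2 and 78.5 and 101 CPM in those of T3. The T1 libraries lay below T0 with a narrow gap, and T2 and T3 overlapped with T0. The log2 fold change was -0.52 ± 0.19 at T1 (adjusted p = 0.0741, edgeR) and -0.36 ± 0.17 at T2 (adjusted p = 0.11), neither past the threshold. Leaving out T0 replicate 2 or 3 brought the T1 value past it (adjusted p = 0.0478 and 0.0208), though without replicate 3 the value itself was smaller, at -0.28 (-0.13 at T2), and leaving out T0 replicate 2 also the T2 value (adjusted p = 0.0475).

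Per transcript length, Spry2 was above Spry1 and Spry1 above Spry4 in 10 of the 12 libraries. FPKM, the authors' fragment count scaled to transcript length and sequencing depth, can be compared between genes of a library. Spry4 over Spry2 was 0.322, 0.313 and 0.912 in FPKM at T0, between 0.0999 and 0.151 for T1, between 0.0873 and 0.138 for T2, and 0.167 and 0.270 for T3. The ratio was thus lower in all 9 later libraries than in any T0 library. Spry1 over Spry2 exceeded 1 only in T0 replicate 3 (1.53) and T3 replicate 4 (1.43) and lay between 0.408 and 0.645 in the other 10 libraries.

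The Spred proteins recruit neurofibromin to the membrane, where it switches RAS off. Their transcripts changed less than those of Spry1 and Spry4. Spred2 (chr11:19824378-19924029, plus strand) had 83.6, 86.8 and 117 CPM in the T0 libraries, which did not overlap with the 62.7, 69.3 and 61.9 CPM of T1. At T2 it spread from 51.6 to 88.4 CPM (63.4, 88.4, 51.6 and 74.3 CPM) and overlapped with T0, and the T3 libraries were at 78.6 and 80.9 CPM. It fell by 0.57 ± 0.16 on the log2 scale at T1 (1.48-fold, adjusted p = 0.0324, edgeR), a call that was lost without T1 replicate 1, 2 or 3 (adjusted p = 0.117, 0.0850 and 0.107). Its value at T2 was -0.45 ± 0.20 (adjusted p = 0.0967), and 0.0485 was the adjusted p without T2 replicate 2. The values without T0 replicate 3 were -0.40 at T1 (adjusted p = 0.00467) and -0.28 at T2 (adjusted p = 0.20).

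Spred1 (chr2:116947110-117008015, plus strand) passed no test in any of the 5 comparisons. The T0 libraries held 151, 161 and 225 CPM, those of T1 134, 150.2 and 132 CPM, those of T2 146, 170.3, 129 and 153 CPM, and those of T3 173 and 186 CPM. The T1 libraries lay just under the lowest T0 library, and T2 and T3 overlapped with T0. The log2 fold change was -0.37 ± 0.17 at T1 (adjusted p = 0.136) and -0.24 ± 0.16 at T2 (adjusted p = 0.25, edgeR). These values were -0.17 and -0.04 without T0 replicate 3.

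Dusp6 and Dusp4 encode MAP kinase phosphatases, of which Dusp6 acts on ERK in the cytoplasm and Dusp4 in the nucleus. Dusp6 (chr10:98725865-98730122, plus strand) had the largest fitted change of the 10 genes at T1 with all libraries, and a smaller one than Etv4 without T0 replicate 3 (-1.81 against -1.86). The T0 libraries had 160.1, 130.5 and 524 CPM of it and the T1 libraries 48.2, 41.2 and 35.6 CPM. The T2 libraries were at 50.5, 49.2, 33.9 and 42.0 CPM and the T3 libraries at 58.5 and 128 CPM. All 9 later libraries lay below all T0 libraries, with T3 replicate 4 just under the lowest. In edgeR the gene fell by 2.71 ± 0.54 on the log2 scale at T1 (6.55-fold, adjusted p = 0.0110) and by 2.61 ± 0.45 at T2 (6.12-fold, adjusted p = 0.00248). It fell without T0 replicate 3 by 1.81 (adjusted p = 1.24e-05) and by 1.71 (adjusted p = 1.27e-05), and without T1 replicate 2 or 3 the adjusted p at T1 was 0.0579 and 0.0577.

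Dusp4 (chr8:35870351-35882948, plus strand) was the lowest of the 10 genes at every time point per transcript length, at 2.62 ± 1.26 FPKM (SD, n = 3) at T0. It rested on 39 to 173 counts per library. The levels were 6.75, 6.56 and 12.2 CPM in T0, 6.12, 5.08 and 4.76 CPM in T1, 6.59, 6.11, 3.55 and 3.87 CPM in T2, and 7.96 and 10.5 CPM in T3. The T1 libraries lay just below T0, the T2 libraries overlapped with T0 and T1, and both T3 libraries lay above all those of T2. Neither T1 (-0.69 ± 0.30, adjusted p = 0.12) nor T2 (-0.75 ± 0.32, adjusted p = 0.0902) passed the test in edgeR, and without T0 replicate 3 the values were -0.33 (adjusted p = 0.16) and -0.40 (adjusted p = 0.223). Dusp6 over Dusp4 was 21.9, 17.9 and 37.7 in FPKM at T0, 6.56 to 7.17 in the T1 libraries, 6.81 to 10.3 in those of T2, and 7.08 and 11.7 in those of T3, lower in every later library than at T0.

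Etv4 and Etv5 are ETS transcription factors of the PEA3 group that carry FGF responses to further genes. Both fell at T1 and T2, and the change of Etv4 was nearly as large without T0 replicate 3. Etv4 (chr11:101631056-101646685, minus strand) had 167, 152 and 199.7 CPM in the T0 libraries against 37.3, 33.5 and 60.1 CPM in those of T1. The T2 libraries had 52.4, 51.0, 36.1 and 56.3 CPM, T3 replicate 1 had 68.8 CPM and T3 replicate 4 had 159 CPM. The T1 and T2 libraries lay far under those of T0, and T3 replicate 4 was back among the T0 values. It fell by 1.99 ± 0.24 on the log2 scale at T1 (3.97-fold, adjusted p = 0.00182) and by 1.80 ± 0.17 at T2 (3.49-fold, adjusted p = 0.00014, edgeR). Leaving out T0 replicate 3 gave -1.86 (adjusted p = 0.000132) and -1.68 (adjusted p = 1.19e-05).

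Etv5 (chr16:22381382-22439792, minus strand) had the highest mean FPKM of the 10 genes at all 4 time points. Its T0 libraries had 342, 321 and 646 CPM, those of T1 117, 113 and 156 CPM, those of T2 142, 211, 87.5 and 199 CPM, and those of T3 189 and 522 CPM. T1 and T2 did not overlap with T0, and T3 replicate 4 exceeded T0 replicates 1 and 2. The fall was by 1.77 ± 0.30 on the log2 scale at T1 (3.4-fold, adjusted p = 0.00633) and by 1.43 ± 0.34 at T2 (2.7-fold, adjusted p = 0.0103, edgeR). It was by 1.36 and 1.04 without T0 replicate 3 (adjusted p = 6.35e-05 and 0.00914).

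The third PEA3 factor, Etv1, is no member and moved the other way. Etv1 had 92.0, 90.2 and 72.8 CPM in the T0 libraries, 147, 216 and 125 CPM in those of T1, 189, 224, 157 and 143 CPM in those of T2, and 229.6 and 111 CPM in those of T3. It rose by 0.93 ± 0.22 on the log2 scale at T1 (adjusted p = 0.0191) and by 1.09 ± 0.18 at T2 (adjusted p = 0.00173, edgeR). Etv5 over Etv1 was 5.88, 6.16 and 15.7 in FPKM at T0 but between 0.838 and 1.65 at T1, between 0.861 and 2.00 at T2, and 1.25 and 6.54 in T3 replicates 1 and 4. The ratio in T3 replicate 4 was within the T0 range and that in replicate 1 within the T1 range.

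Egr1 (chromosome 18) encodes a zinc finger factor that is transcribed within minutes of ERK activation, and its profile differed in shape from the rest. The T0 libraries had 309, 129 and 389 CPM, those of T1 104, 88.8 and 127 CPM, those of T2 68.0, 82.1, 42.7 and 71.7 CPM, and those of T3 45.3 and 51.1 CPM. The T1 libraries lay just under the lowest T0 library, the T2 libraries under all of T1, and both T3 libraries within the lower part of T2. In edgeR the fall was by 1.38 ± 0.38 on the log2 scale at T1 (2.59-fold, adjusted p = 0.0334) and by 2.04 ± 0.36 at T2 (4.12-fold, adjusted p = 0.00257). The T1 call was lost without T0 replicate 1 (adjusted p = 0.0696) and without T1 replicate 1, 2 or 3 (adjusted p = 0.113, 0.128 and 0.0812), and without T0 replicate 3 the values were -1.04 (adjusted p = 0.0193) and -1.71 (adjusted p = 0.00126). In the annotation Gm17507 overlaps exons of Egr1 on the opposite strand. The strand setting of the counting is not given in the sources used here, so reads of the pair cannot be told apart.

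**Figure D3:**
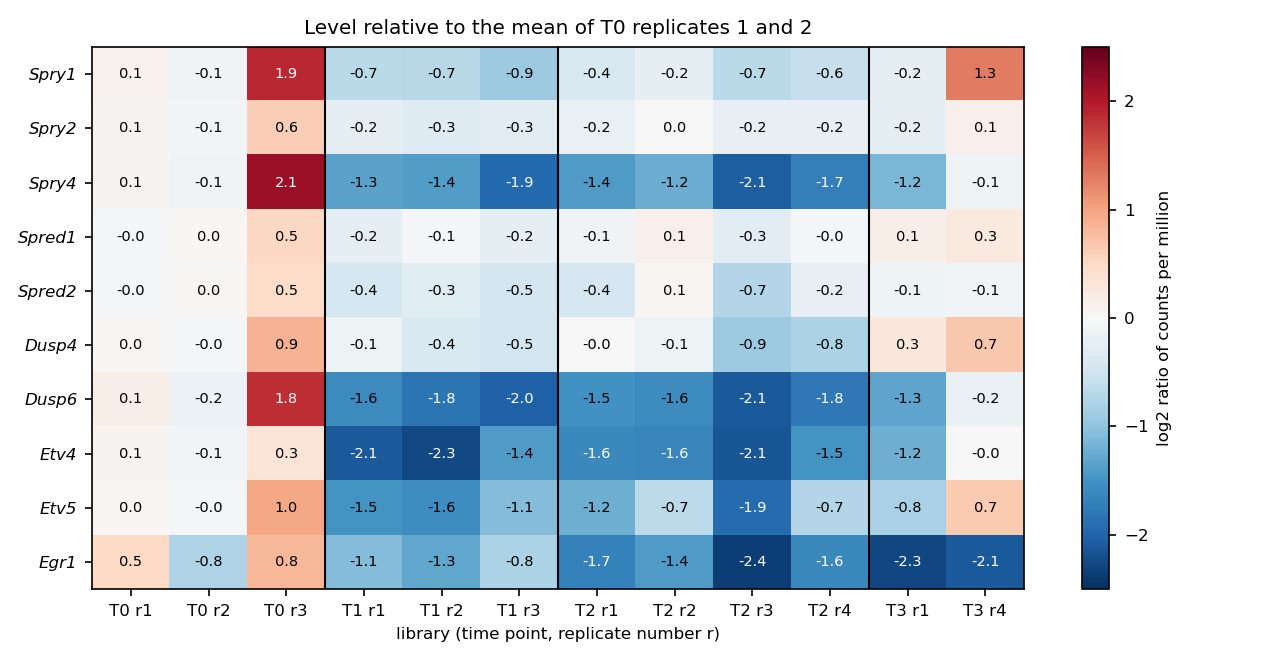
Log2 ratio of the CPM of each gene (rows) in each library (columns, r for replicate) to the mean of T0 replicates 1 and 2, printed in each cell and coloured from blue (lower) to red (higher). T3 replicate 4 is near 0 or above for 9 genes and at -2.1 for Egr1, and T0 replicate 3 is above 0 for all 10.

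Set against the mean of T0 replicates 1 and 2, the depth of the drop differed between members. In the T1 libraries 21.0 to 37.7% of the Etv4 level was left, 24.5 to 33.2% for Dusp6, 26.1 to 39.4% for Spry4 and 34.0 to 47.2% for Etv5. Egr1 kept 40.6 to 58.1% and Spry1 53.1 to 62.5%. The other 4 genes stayed higher, at 72.7 to 81.3% for Spred2, 80.5 to 84.1% for Spry2, 84.7 to 96.2% for Spred1 and 71.5 to 91.9% for Dusp4. These shares describe the libraries and were not tested.

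The step from T1 to T2, when medium D1 was replaced by medium B, changed none of the 10 genes by edgeR. At an unadjusted p under 0.05, 1 was lower (Egr1) and 1 higher (Spry1), against 524 lower and 920 higher of all 12382 genes tested. By the adjusted test 0.0565% of all genes were lower and 0.573% higher. Egr1 was lower in each T2 library than in each T1 library (5.85% of all genes were so), with a log2 fold change of -0.68 ± 0.19 (adjusted p = 0.186). It was past the threshold with DESeq2 (adjusted p = 0.0350), which called 1 of the 10. Spry1 (0.31 ± 0.12, adjusted p = 0.328) and Spry2 (0.14 ± 0.07, adjusted p = 0.515) were higher without overlap, as were 6.4% of all genes. The other 7 overlapped, with values from -0.08 for Dusp4 to 0.32 for Etv5. The median was 0.12 over the 10 genes and -0.0039 over all genes. Same-numbered T1 and T2 libraries deviated together, and with the replicate number as a block 59 genes were lower and 187 higher over all genes, against 7 and 71 without it, while none of the 10 passed.

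At T3, after 10 days in medium B, none of the 10 genes passed the test against T0 in edgeR, where 1.41% of 12721 genes were lower and 3.31% higher. At an unadjusted p under 0.05, 1 of the 10 (Egr1) was lower and 0 higher, against 1607 lower and 1743 higher of all 12721 genes. Egr1 was 5.65-fold lower in the fit, with a log2 fold change of -2.498 ± 0.49 and an adjusted p of 0.0501. Egr1 passed without T0 replicate 2 (adjusted p = 0.0448), without T0 replicate 3 (-2.17, adjusted p = 0.0325, where 8.49% of all genes were lower and 9.94% higher) and with DESeq2 (adjusted p = 2.51e-06), which called 1 of the 10. Spry4, Spred2, Dusp6 and Egr1 were lower in both T3 libraries than in all T0 libraries, a pattern held by 25.8% of all genes. Dusp6 was at -1.52 ± 0.71 (adjusted p = 0.241) and Spry4 at -1.61 ± 0.79 (adjusted p = 0.26), and without T0 replicate 3 they were at -0.63 and -0.52. The remaining log2 fold changes lay between -0.59 (Etv4) and 0.14 (Dusp4). The median was -0.27 over the 10 genes and -0.015 over all genes. With 2 T3 libraries these data do not show whether the members as a group had returned to their T0 level. Egr1 by itself stayed lower in all 13 alternatives, with log2 fold changes from -2.84 to -2.17.

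Among the 10 members, the T3 libraries differed from each other most in Spry1, Spry4, Dusp6, Etv4 and Etv5. All 10 genes were higher in T3 replicate 4 than in T3 replicate 1, at 2.88 times for Spry1, 2.77 times for Etv5, 2.30 times for Etv4, 2.19 times for Dusp6 and 2.07 times for Spry4. Dusp4 (1.33), Spry2 (1.29), Egr1 (1.13), Spred1 (1.07) and Spred2 (1.03) differed less. These 5 of 10 genes at 2 times or more compare with 4.32% of 12942 genes, whose median ratio was 0.996. The sum of the proliferation markers was 420.3 CPM in replicate 1 and 753 CPM in replicate 4, and its part in this difference was not tested. Relative to the mean of T0 replicates 1 and 2, T3 replicate 4 held 246% of Spry1, 157% of Etv5, 99.4% of Etv4, 93.3% of Spry4 and 88.2% of Dusp6 but 23.4% of Egr1. T3 replicate 1 held 85.4%, 56.9%, 43.2%, 45.0%, 40.2% and 20.7% of the same genes.

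Between T2 and T3, in the same medium, none of the 10 genes passed the test in edgeR, and 0.691% and 0.5% of 12599 genes were lower and higher. At an unadjusted p under 0.05, 0 of the 10 were lower and 6 higher, against 954 lower and 1190 higher of the 12599 genes. The 6 were Spry1, Spry4, Dusp4, Dusp6, Etv4 and Etv5. The largest were Etv4 (1.21 ± 0.29, adjusted p = 0.0782), Spry1 (1.18 ± 0.34, adjusted p = 0.12), Etv5 (1.15 ± 0.41, adjusted p = 0.198) and Dusp6 (1.09 ± 0.28, adjusted p = 0.0920). Spry4, Spred1, Dusp4, Dusp6 and Etv4 were higher in both T3 libraries than in all T2 libraries, against 13.6% of all genes. The median was 0.96 over the 10 genes and 0.0066 over all genes, and Egr1 was the 1 gene with a value below 0 (-0.46 ± 0.23, adjusted p = 0.367). DESeq2 called 4 of the 10 genes higher (Spry1, Spry4, Dusp6 and Etv4), and the share of all genes it called is not given here. Without T3 replicate 1 those 4 and Etv5 had log2 fold changes of 1.48 to 1.76 in edgeR. That fit assumed the lone T3 library to vary like the T2 libraries. Without T3 replicate 4 Spry1 was at 0.21 and Etv5 at 0.22.

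Spry1, Spry4, Dusp6 and Etv5 also showed the largest ratios of T0 replicate 3 to the rest of T0. All 10 members were higher in T0 replicate 3 than in the mean of replicates 1 and 2, at 4.41 times for Spry4, 3.70 times for Spry1 and 3.60 times for Dusp6, followed by Etv5 (1.95), Dusp4 (1.83), Egr1 (1.78), Spry2 (1.53), Spred1 (1.44), Spred2 (1.37) and Etv4 (1.25). Of 12929 genes, 4.38% were at 2 times or more and 15.5% at 1.5 times or more, against 3 and 7 of the 10 members, and the median ratio was 0.991 for all genes and 1.80 for the members. Cyclin D1 (Ccnd1), a cell cycle gene induced through ERK, was 4.35 times as high in T0 replicate 3. Fos was at 0.296 times and the ERBB family receptor gene Erbb3 at 0.021 times. Immediate-early genes other than Fos went both ways there, for example Klf2 (2.13 times) and Ier2 (2.04 times) against Btg2 (0.323 times) and Ier5 (0.424 times). In T0 replicate 3 13.3% of unique alignments lay on no gene, against 19.6 and 19.9% in replicates 1 and 2.

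Per transcript length, the order of the 10 genes differed between time points. At T0 the means ran from Etv5 (155 ± 76.3 FPKM, SD, n = 3) over Etv4 (102 ± 18.8), Dusp6 (76.4 ± 67.2), Egr1 (68.6 ± 37.0), Spry1 (42.3 ± 37.6), Spry2 (40.3 ± 13.8), Spred1 (33.1 ± 9.40), Spred2 (25.2 ± 6.61) and Spry4 (23.9 ± 23.6) to Dusp4 (2.62 ± 1.26). Neighbours in that order overlapped between libraries, except Spry4 and Dusp4. At T1 Etv5 (39.6 ± 3.40 FPKM) stood apart above Spry2 (27.3 ± 0.882), Spred1 (26.6 ± 1.42), Egr1 (25.7 ± 5.01) and Etv4 (24.2 ± 7.84), which overlapped. Spred2 (16.5 ± 0.771 FPKM) stood apart from both sides, Spry1 (12.5 ± 0.944) and Dusp6 (11.1 ± 1.62) overlapped, and Spry4 (3.64 ± 0.743) and Dusp4 (1.61 ± 0.165) each stood alone. Dusp6 thus went from rank 3 to rank 8 and Spry2 from rank 6 to rank 2. In T0 replicates 1 and 2 alone the order was Etv5 (111 FPKM on average), Etv4 (91.7), Egr1 (51.3), Dusp6 (37.7), Spry2 (32.4), Spred1 (27.7), Spred2 (21.4), Spry1 (20.6), Spry4 (10.3) and Dusp4 (1.89), which puts Dusp6 at rank 4 and Spry2 at rank 5.

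At T2 the order by FPKM was Etv5 (47.1 ± 17.5, n = 4), Spry2 (28.0 ± 2.04), Spred1 (27.5 ± 2.32), Etv4 (24.6 ± 5.84), Spred2 (16.7 ± 3.57), Egr1 (14.9 ± 3.68), Spry1 (14.4 ± 2.18) and Dusp6 (10.98 ± 2.11), all overlapping with their neighbours, and then Spry4 (3.33 ± 0.830) and Dusp4 (1.39 ± 0.501), each apart. At T3, Etv5 (90.2 ± 45.4 FPKM, n = 2) and Etv4 (50.7 ± 21.7) were again the top of the order, followed by Spred1 (30.0 ± 1.05), Spry1 (29.7 ± 18.2), Spry2 (28.2 ± 2.25), Dusp6 (21.2 ± 9.41) and Spred2 (18.4 ± 1.39), of which each overlapped with the next. Etv4 stood apart from its neighbour Spred1 but overlapped with Spry1. Egr1 followed at 10.2 ± 0.0868 FPKM, apart on both sides, and then Spry4 (6.24 ± 2.55) and Dusp4 (2.22 ± 0.229).

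Across the 12 libraries, which share culture medium within a time point and differ in depth, each gene was compared with the mean standardized log2 CPM of all 10. Each member is itself part of that mean. The closest were Spry4 (Pearson r = 0.978) and Dusp6 (0.975), and the least close was Egr1 (0.655). The 5 genes outside the list with the most similar profile, of 11586 compared, were Myo1c (r = 0.979), Mkl2 (0.977), Med14 (0.975), Mbnl1 (0.975) and Senp1 (0.974). All 5 had their highest T0 level in replicate 3, as Myo1c did, with 92.5 CPM there, 48.3 and 50.9 CPM in replicates 1 and 2 and 28.8 to 40.5 CPM at T1 and T2. By rank correlation (Spearman) Senp1 kept a high place (rho = 0.965, rank 6 of all), while Myo1c dropped to rank 266 (rho = 0.902).

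Upstream of the members, the receptors of the supplied factors moved in both directions. Of 10 receptor genes listed, 8 were tested at T1, where 3 were lower and 2 higher, and 9 at T2, where 3 were lower and 4 higher (edgeR). These counts, and those of the lists below, are to be read against the shares over all genes. Those were 16.8% lower and 15.1% higher at T1, 21.8% and 21.4% at T2, and 1.41% and 3.31% at T3. From T1 to T2 they were 0.0565% and 0.573%, and from T2 to T3 0.691% and 0.5%. The EGF receptor Egfr had 1068, 1035 and 841 CPM in the T0 libraries, 1732, 1957 and 1728 CPM in those of T1, 1441, 1968, 1090.1 and 1649 CPM in those of T2, and 1359 and 1156 CPM in those of T3. It rose by 0.88 ± 0.15 on the log2 scale at T1 (adjusted p = 0.0058) and by 0.66 ± 0.20 at T2 (adjusted p = 0.0285), in media with less or no listed EGF. Of the FGF receptors, Fgfr1 (374 to 487 CPM at T0, 258 to 279 CPM at T1, 204 to 275 CPM at T2) fell by 0.71 at T1 (adjusted p = 0.0088) and 0.84 at T2 (adjusted p = 0.00198). Fgfr3 (231 to 785 CPM at T0, lowest in replicate 3, and 149 to 259 CPM at T1 and T2) fell by 1.36 (adjusted p = 0.0468) and 1.64 (adjusted p = 0.00684), and Fgfr2 did not pass (0.40 and 0.36, adjusted p = 0.21 and 0.267). Erbb4 rose by 2.43 and 2.12. The BDNF receptor Ntrk2 was at 1.14 at T1 (adjusted p = 0.0649, and past the threshold at 0.78 with an adjusted p of 0.000356 without T0 replicate 3) and rose by 0.99 at T2 (adjusted p = 0.0494), then fell by 0.97 from T2 to T3 (adjusted p = 0.0437), where Erbb3 rose by 3.13 (adjusted p = 0.0444). From T0 to T3, 1 of 9 receptors was lower, Fgfr1, at -0.95 (adjusted p = 0.0499), and 0 were higher. From T1 to T2 none of 8 passed, and from T2 to T3 1 of 9 was lower and 1 higher.

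**Figure D4:**
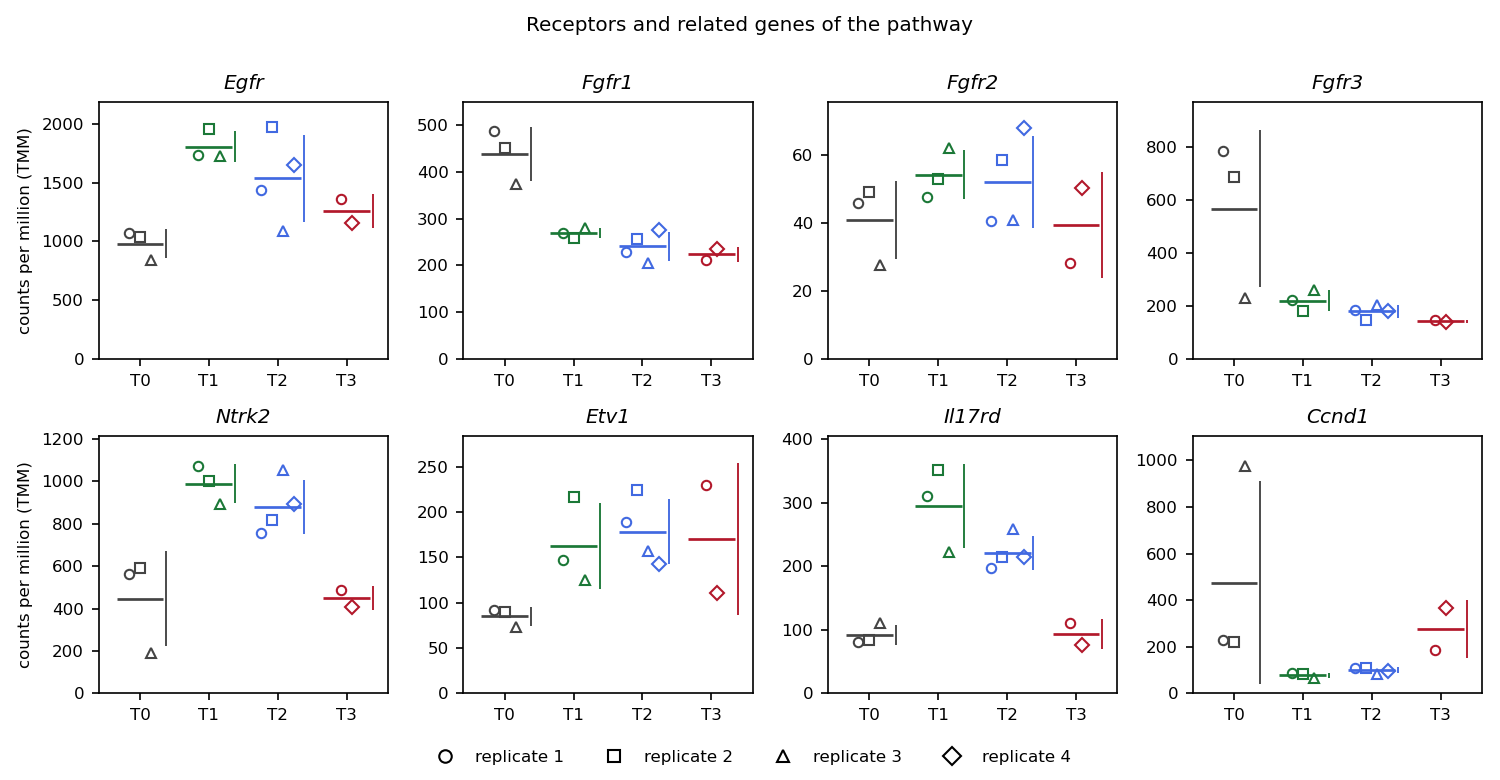
Level of 4 growth factor receptors of the EGF and FGF families, the BDNF receptor Ntrk2, and Etv1, Il17rd and Ccnd1 in each library, in CPM from 0 upward, drawn as in the plot of the members (points, libraries by replicate number; bars, mean; vertical lines, ± 1 SD). Egfr, Etv1 and Il17rd lie higher in every T1 and T2 library than in every T0 library, and Ccnd1 lower.

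Among the cells' own ligands, Areg, which encodes the EGF family ligand amphiregulin, fell most. It had 44.4, 38.9 and 61.4 CPM in the T0 libraries against 2.84, 2.54 and 2.80 CPM in those of T1, and fell by 4.14 ± 0.23 on the log2 scale at T1 and 4.23 ± 0.22 at T2. Of 14 ligand genes listed, 1 of 8 tested was lower and 3 higher at T1, 1 of 10 lower and 6 higher at T2, and 0 of 10 lower and 2 higher at T3 (0 and 6 of 9 without T0 replicate 3), and none passed from T1 to T2 or from T2 to T3. The higher ones included Bdnf (1.10 and 1.22) and, at T2, Fgf17 (3.09). The kinase cascade itself had calls in both directions, as had all genes (16.8% lower and 15.1% higher at T1, 21.8% and 21.4% at T2). Of 23 tested genes from receptor adaptors to ERK and its RSK kinases, the test found 4 lower and 3 higher at T1 and equal numbers, 4 and 4, at T2, with a median of 0.09 and 0.04, and none passed in the other 3 comparisons. The largest were the RSK gene Rps6ka1 (-1.29 and -1.31), the adaptor genes Shc1 (-1.06 and -1.06) and Gab1 (1.08 and 0.93) and the RSK gene Rps6ka2 (1.07 and 0.81).

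The relatives of the 10 genes did not move as a block. Of 14 further Sprouty, Spred, DUSP, PEA3 and EGR genes, 10 were tested, with 3 lower and 2 higher at T1, then 4 lower and 2 higher for T2, 0 lower and 1 higher at T3 and none from T1 to T2 or T2 to T3. Dusp5, which like Dusp4 encodes a nuclear ERK phosphatase, fell by 1.65 ± 0.30 and 1.37 ± 0.32, and Dusp1 fell by 0.64 ± 0.16 and 0.49 (adjusted p = 0.0231 and 0.0169). Dusp10 fell by 0.78 at T2, and Dusp8, whose product acts on the JNK and p38 kinases, rose by 1.63 ± 0.18 and 1.85 ± 0.17. Of 10 other inhibitors of receptor tyrosine kinase signalling, 0 were lower and 3 higher at T1, 1 lower and 3 higher at T2, and 1 lower from T2 to T3, with none in the other 2 comparisons. Among them Il17rd (Sef), an inhibitor that is itself an FGF target, was opposite to the Sprouty genes, with 81.5, 83.9 and 110.4 CPM in the T0 libraries against 311, 351 and 222 CPM in those of T1. It rose by 1.68 ± 0.21 at T1 (adjusted p = 0.00193) and 1.28 ± 0.15 at T2 and fell by 1.24 ± 0.17 from T2 to T3 (adjusted p = 0.0297). The EGF receptor inhibitor Errfi1 did not pass (0.41 and 0.37, adjusted p = 0.196 and 0.168). Rasa2 rose by 0.63 and 0.60, and Rasal2 fell by 0.92 at T2.

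Of 13 other genes known to respond to ERK, 10 were tested, of which 4 fell and 1 rose at T1, 4 fell and 2 rose at T2, 1 fell and 1 rose at T3, none from T1 to T2 and 0 lower and 2 higher from T2 to T3. Ccnd1 was at 230.5, 219 and 976 CPM at T0, 66.6 to 85.7 CPM at T1, 83.7 to 109.9 CPM at T2, and 188 and 365 CPM in T3 replicates 1 and 4. It fell by 2.60 ± 0.61 (adjusted p = 0.0188) and 2.24 ± 0.50 (adjusted p = 0.00753), or by 1.52 and 1.16 without T0 replicate 3, and rose by 1.48 ± 0.23 from T2 to T3 (adjusted p = 0.0387). Myc was the other gene that rose from T2 to T3 (0.79, adjusted p = 0.0492). Ier3 fell by 1.96 at T1 and Hmga2 by 1.80 at T2, while Ets1, an ETS factor, rose by 1.56 and 1.45 and Vgf by 1.47 at T2. Of 8 ETS and repressor factors, 1 was lower and 1 higher at T1 and at T2, and 0 lower and 1 higher at T3, with none in the other 2 comparisons. The lower one was Erf, a repressor that ERK drives out of the nucleus (-1.02 and -1.26), and Cic itself was at -0.05 (adjusted p = 0.815) and 0.01 (adjusted p = 0.962).

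Of 23 further immediate-early genes, which like Egr1 are transcribed without new protein synthesis, 20 were tested. Of these 5 fell and 1 rose at T1, 5 fell and 3 rose at T2, and 0 fell and 1 rose from T1 to T2, with none at T3 (2 lower and 1 higher without T0 replicate 3) or from T2 to T3. Junb fell by 1.76 ± 0.29 and 1.63 ± 0.22 and Klf10 by 1.53 ± 0.24 and 1.71 ± 0.21, while Nr4a3 rose by 1.03 and 0.91. Atf3, at 0.603 to 0.897 CPM at T1 and 2.76 to 6.55 CPM at T2, was the 1 gene that rose from T1 to T2 (2.61, adjusted p = 0.0157). Fos, whose promoter is a textbook ERK target like that of Egr1, did not pass at T1 or T2. Fos had 42.8, 28.7 and 10.6 CPM in the T0 libraries, which enclosed the 16.1, 14.7 and 28.7 CPM of T1 (log2 fold change -0.46, adjusted p = 0.497, and -0.02, adjusted p = 0.977, at T2). T0 replicate 3, the lowest T0 library for Fos, moved this call: without it Fos fell by 0.83 at T1 (adjusted p = 0.0332) and by 0.40 at T2 (adjusted p = 0.0469).

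Every gene named from the lists by rule for its change at T1 or T2 kept its direction and call without T0 replicate 3. The ligands at T1 and T2 and the relatives at T2 kept their counts. So did the other ERK-responsive genes and the ETS and repressor factors at T3. Otherwise the lists, like all genes together, had more calls without that library. At T1 they held 4 lower and 3 higher of 8 receptors, 1 and 3 of 9 ligands, 5 and 7 of 23 cascade genes, 5 and 2 of 10 relatives, 2 and 4 of 10 other inhibitors, 4 and 3 of 10 other ERK-responsive genes, 1 and 2 of 8 ETS and repressor factors and 7 and 1 of 20 immediate-early genes. At T2 the same lists held, in this order, 4 and 4 of 9, 1 and 6 of 10, 6 and 5 of 23, 4 and 2 of 10, 3 and 3 of 10, 4 and 4 of 10, 1 and 2 of 8, and 8 and 2 of 21. At T3 they held 2 and 0 of 9, 0 and 6 of 9, 1 and 1 of 23, 2 and 1 of 10, 2 and 0 of 10, 1 and 1 of 10, 0 and 1 of 8, and 2 and 1 of 20. Over all genes the shares without that library are those given above, for T3 8.49% lower and 9.94% higher.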

How the data were processed

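The authors selected polyadenylated RNA with the TruSeq RNA v2 kit and sequenced it on a HiScanSQ. Per the labels, reads were aligned to mm9 with TopHat2 2.0.6 and Bowtie 0.12.7.0, and the submitters' processing notes also name HTSeq 0.6.0, CASAVA 1.8 and DESeq2 1.0.0. The authors deposited raw counts per gene for each library and a table of FPKM values, whose tool is not given in the sources used here. The 5 entries of a count table that name no gene were left out, and reads on no gene made up 13.3 to 24.1% of unique alignments.

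Each comparison was fitted to the libraries of its 2 groups, taken from the labels, in R 4.3.3 with edgeR 4.0.16 (TMM factors from 0.932 to 1.04, filterByExpr, glmQLFit, glmQLFTest) without a replicate block. P-values were adjusted by Benjamini-Hochberg over all genes tested, with a threshold of 0.05, and all 10 members passed the filter in every comparison. The standard error is the size of the log2 fold change divided by the square root of F. Alternatives were DESeq2 1.42.0, limma 3.58.1 on log2(FPKM + 1) and log2(FPKM + 0.1), other filters, a fit of all 12 libraries and leaving out each library. The scripts were tested on simulated counts. P-values measure only the spread between these libraries.

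Same-numbered T1 and T2 libraries had correlated deviations from their group means (r = 0.199, 0.341 and 0.166), so these numbers were taken to pair the samples. Members and lists were chosen with earlier results of these data known. Other genes were named by rule: Egfr, Fgfr1, Fgfr2, Fgfr3, Ntrk2, Etv1, Il17rd, Errfi1, Ccnd1, Fos and Dusp1 in any case, and from each list the 2 largest called changes in each direction at T1 and at T2 among genes whose average log2 CPM was 1 or more. Erbb3, Myc, Cic, Gfap, Gpr17, Egr2, Ier2, Ier5, Klf2, Fosl2, Btg2 and the change of Atf3 from T1 to T2 were named after their values were seen.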

Additional observations from a re-analysis of the deposited data

Results flagged for a closer look

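In the 4 T2 libraries Spry2 was at 92.3 CPM in replicate 2 and between 80.4 and 80.6 CPM in the other 3, so replicate 2 stood apart from a narrow group by Dixon's test. It was 1 of 21 groups of T2 values examined, and chance alone marks about 1 in 20. T2 replicate 2 was also the highest T2 library for Spry1, Spry4, Spred1, Spred2, Etv5 and Egr1, without standing apart by the same test.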

How the results depend on the processing

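At T1, 7 members were lower. The number was 3 with limma on log2(FPKM + 1), 4 with log2(FPKM + 0.1), 2 without a filter on FPKM, 4 with the replicate block and 2 to 8 when single libraries were left out. At T2 it was 6, and 3 with the replicate block (Dusp6, Etv4 and Egr1). At T3 it was 0 against T0, but 1 with DESeq2, 1 without a filter on low counts and 2 in a fit of all 12 libraries. It was 0 to 1 there when single T0 libraries were left out. Against T2 0 were higher at T3, but 4 with DESeq2 and 5 without a filter. From T1 to T2 0 were lower, but 1 with DESeq2. The shares of all genes called with DESeq2, without a filter or in the fit of all 12 libraries are not given here. These counts are therefore not set against such shares. The causes were not tested. At T1 and T2 all members that passed kept their sign in every alternative.

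The sign turned for values that passed no test. At T3 against T0, Spred1 was at -0.105, -0.108 and -0.105 and Dusp4 at -0.118, -0.141 and -0.118 on log2(FPKM + 1), log2(FPKM + 0.1) and without a filter, against 0.02 and 0.14 from counts. When single libraries were left out, the T3 values ranged from -1.15 to 0.74 for Spry1, -0.0889 to 0.216 for Spred1, -0.0919 to 0.487 for Dusp4 and -1.21 to 0.28 for Etv5, and Spry2 at T3 against T2 from -0.103 to 0.282. From T1 to T2, Spred2 was at -0.0102, -0.012 and -0.0102 and Dusp6 at -0.0191, -0.0215 and -0.0191 in the same 3 FPKM fits, Dusp4 at 0.0108 with the replicate block, and single libraries gave -0.197 to 0.0997 for Spry4, -0.0212 to 0.227 for Spred2, -0.239 to 0.0472 for Dusp4 and -0.0135 to 0.198 for Dusp6. With libraries numbered 1 and 2 alone, Spry4 (0.0548) and Dusp4 (0.200) from T1 to T2 and Spred1 at T2 against T0 (0.0313) turned.

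The FPKM scale moved the median of all genes by -0.172 at T2, -0.273 at T3 and -0.11 from T1 to T2, and its values are to be read against that. It split the T2 calls over all genes into 3011 lower and 1576 higher, against 2751 and 2704 from counts. The replicate numbers gave no clear pairing for T2 and T0 (r = -0.0641, 0.0154 and -0.152) or T3 and T2 (-0.0153 and 0.258), nor for T1 and T0, though there each library correlated best with its own number in 2 of 3 cases. With the replicate block all genes together had 1724 lower calls and 1648 higher calls at T1, 1535 and 1622 at T2, and 9 and 5 from T2 to T3, against 2078 and 1871, 2751 and 2704, and 87 and 63 without it. No paired analysis was possible because T3 and T0 share 1 number. With 2 libraries at T3, that comparison has the least precision.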

Other observations

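Within T0, replicates 1 and 2 were close for 9 of the members, with ratios of replicate 1 to replicate 2 from 0.938 (Spred1) to 1.23 (Dusp6), while Egr1 was at 309 CPM in replicate 1 and 129 CPM in replicate 2, a ratio of 2.40. A ratio of 2 or more was found for 0.954% of 12889 genes. Other immediate-early genes went in both directions. Higher in replicate 1 were, among others, Egr2 and Fos (1.49 times each), Ier2 (1.48 times) and Junb (1.43 times). Lower there were, among others, Klf2 (0.784 times), Nr4a3 (0.815 times) and Fosl2 (0.861 times). These genes were named after their values were seen.

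In T3 the phosphatase gene Dusp5 was at 1.17 CPM in replicate 1 and 5.17 CPM in replicate 4, a ratio of 4.41, larger than that of any of the 10 members, and the PEA3 gene Etv1 was lower in replicate 4 (111 CPM against 229.6 CPM, a ratio of 0.483). The oligodendrocyte precursor markers were split. Gpr17 was at 0.2 times in replicate 4, Pdgfra at 0.295, Sox10 at 0.321 and Cspg4 at 0.871 times, but Olig1 at 1.27 and Olig2 at 1.17 times. Their sum was 6343 CPM in replicate 1 and 6224 CPM in replicate 4. Ccnd1 was at 1.94 times in replicate 4. No test was made between single libraries.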
